A study of Homo sapiens with 6 samples.

Results

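The genes described here are 10 genes of the T cell receptor and of T-lineage identity in a B-lineage leukemia line: the receptor constant regions *TRBC1*, *TRBC2*, *TRAC*, *TRGC1* and *TRGC2*, the CD3 complex chains *CD3E* and *CD247*, the adaptor *LAT*, and the transcription factors *GATA3* and *TCF7*. They were chosen by gene name, with earlier results of these data known, and are 10 of the 35410 genes with a row of counts. Of these, 5 passed the filter on low counts and were tested: *TRAC*, *GATA3* and *TCF7* were higher in SEM::EGR3 than in SEM::mock, and *TRBC1* and *CD3E* were lower. The other 5 were represented by 0 to 9 reads in each library.

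SEM is an established human B cell precursor leukemia line with a proB phenotype that carries the *KMT2A*::*AFF1* fusion. RNA was compared between SEM::mock, which holds the empty vector, and SEM::EGR3, which holds a doxycycline-inducible vector that overexpresses *EGR3*, a zinc finger transcription factor of the immediate early response. Both lines received doxycycline at 1 µg/mL for 48 h, so the drug is common to all libraries, and each line is represented by 3 libraries labelled as biological replicates of that one line. The comparison asks which transcripts differ when *EGR3* is overexpressed. Polyadenylated RNA was profiled by MACE-Seq, which sequences transcripts from their 3′ ends, so that a read count does not grow with gene length.

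The T cell receptor is a pair of chains, either alpha with beta or gamma with delta, in which a variable part is assembled from gene segments by recombination and is spliced to a constant region. The chains carry no signaling domain of their own and depend on the CD3 chains and on the zeta chain encoded by *CD247*, whose phosphorylation by LCK and ZAP70 leads to the assembly of signaling proteins on the adaptor LAT. GATA3 and TCF1, the product of *TCF7*, act with NOTCH1 in the commitment of thymic progenitors to the T lineage.

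The beta chain has a pair of constant region genes that lie next to each other and are nearly the same in sequence, which matters for how reads can be assigned. The first 90 bases of exon 1 of each are shown, in the orientation of the transcript, because the genes behaved differently in these libraries. Capitals mark the bases that differ within this stretch.
TRBC1: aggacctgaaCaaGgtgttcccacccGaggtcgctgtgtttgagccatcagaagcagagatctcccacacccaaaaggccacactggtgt
TRBC2: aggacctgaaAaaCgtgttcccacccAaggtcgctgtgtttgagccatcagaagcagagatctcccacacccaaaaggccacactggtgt
The stretches lie at chr7:142791694-142791783 and chr7:142801041-142801130 on the plus strand of GRCh38. Counted from 1 at the first base of exon 1, the substitutions from *TRBC1* to *TRBC2* over the whole exon were C11A, G14C, G27A, T109A, T113C, G173A and C347T, so that 380 of 387 bases (98.2%) were identical. The coding sequences matched in 512 of 536 aligned columns (95.5%). The 3′ untranslated regions, which MACE-Seq reads, were much less alike: 48.1% of the aligned columns were identical and the longest shared run was 15 bases. *TRGC1* and *TRGC2*, the constant regions of the gamma chain, shared 324 of 330 bases of exon 1 (98.2%), and their 3′ untranslated regions shared a run of 159 bases, so reads from this pair can be split or lost in counting.

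For the transcription factor genes, the sequence around the transcription start was also searched for the binding motif of EGR proteins. One of the 6 start windows of *GATA3* in RefSeq (GRCh38.p14) held such a match. The window runs from 250 bases before to 50 bases after the start, at chr10:8053391-8053690 on the plus strand, and capitals mark the match to GCGGGGGCG, which is read on the opposite strand.
GATA3: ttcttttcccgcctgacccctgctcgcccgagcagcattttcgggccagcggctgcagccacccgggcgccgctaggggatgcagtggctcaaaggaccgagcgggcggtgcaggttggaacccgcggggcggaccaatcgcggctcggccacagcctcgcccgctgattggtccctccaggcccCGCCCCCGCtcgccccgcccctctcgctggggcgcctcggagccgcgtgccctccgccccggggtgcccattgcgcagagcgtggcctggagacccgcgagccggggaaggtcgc

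Depth differed between the lines. The listed genes summed to between 5286115 and 6181388 reads in the SEM::mock libraries and to between 7293092 and 15106018 in the SEM::EGR3 libraries. Levels are therefore given as counts per 1000000 counts (CPM) after scaling by the trimmed mean of M values (TMM). *EGR3* itself had 8, 10 and 6 reads in SEM::mock and 9768, 4952 and 5557 in SEM::EGR3, as the labels state. A gene at 3 counts or fewer in every library of a line is called at the detection limit in that line, and its fold against that line is given as a lower bound computed with 3 counts in each library. This covers no more than counting error in that line. The observed mean of the other line enters the bound, and its counting error is not covered. At an adjusted p under 0.05 (edgeR's quasi-likelihood test, Benjamini-Hochberg adjustment), 10593 of 15465 tested genes (68.5%) differed between the lines, 36.5% of the tested genes being higher and 32.0% lower in SEM::EGR3. The 3 libraries of one line lay entirely above or below those of the other for 70.1% of the tested genes.

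The labelled cell type was compared with its marker genes. Of 11 markers of proB leukemia with a *KMT2A* fusion, 8 were at the detection limit in SEM::mock, where *EBF1* and *DNTT* had no read, and *PAX5* had 1, 1 and 2 counts. Their summed level was 11.3 to 12.5 CPM in the SEM::mock libraries, most of it *MEIS1*, and 565 to 594 CPM in the SEM::EGR3 libraries. All 8 markers of that list that were tested were higher in SEM::EGR3, beside 36.5% of all tested genes. Of these, 5 were at the detection limit in SEM::mock and so passed the count filter through their SEM::EGR3 counts. *CD34* and *DNTT* were at the detection limit in both lines. Erythroid markers, among them globins and *KLF1*, summed to 3584 to 3744 CPM in SEM::mock and 3688 to 3795 CPM in SEM::EGR3. The proB markers were thus near absent from all 3 libraries labelled SEM::mock, so no comparison can be made without such libraries. What part this has in the differences described below was not tested, and an effect of *EGR3* and any other difference between the 2 lines cannot be told apart. In bulk RNA, a change in the share of cells with a transcript and a change in RNA per cell cannot be told apart either.

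**Figure D1:**
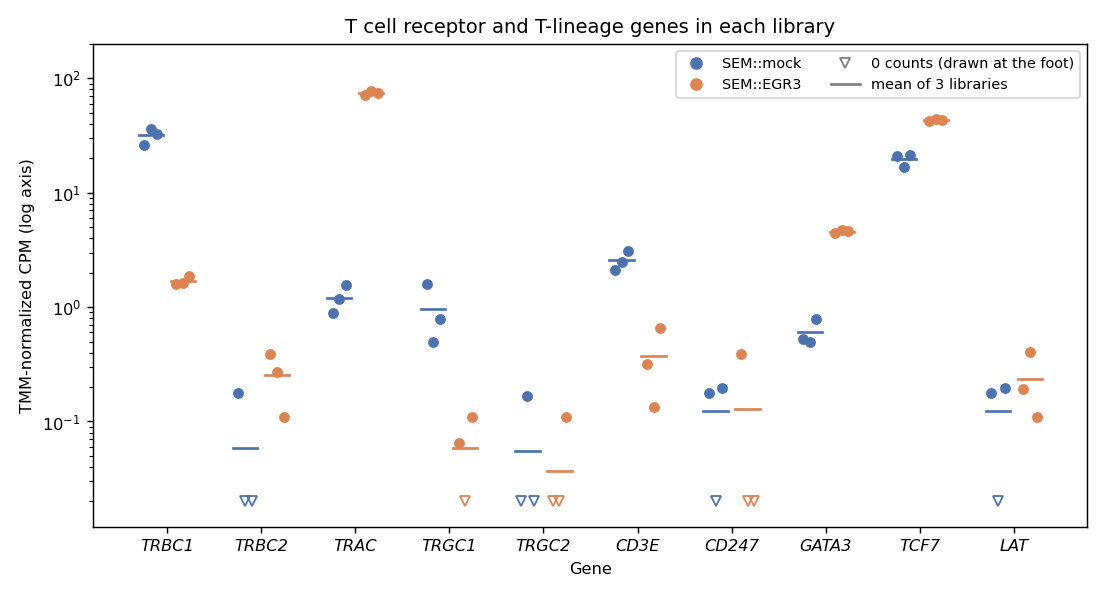
The level of each of the 10 genes in each library, as TMM-normalized CPM on a log axis, with SEM::mock in blue and SEM::EGR3 in orange. Points are libraries, bars are means of 3 libraries, and open triangles at the foot are libraries with 0 counts. The lines do not overlap for TRBC1, TRAC, TRGC1, CD3E, GATA3 and TCF7.

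The alpha and beta constant regions differed in opposite directions. *TRAC* (ENSG00000277734, chr14:22547506-22552154, plus strand) had 5, 7 and 8 reads in the SEM::mock libraries and 1110, 579 and 675 in the SEM::EGR3 libraries. The lowest SEM::EGR3 library, at 71.3 CPM, lay far above the highest SEM::mock library, at 1.56 CPM. The mean level rose from 1.20 ± 0.343 to 74.4 ± 3.19 CPM (SD, n = 3 per line), a 61.8-fold difference (log2 fold change 5.94, SE 0.15; edgeR's quasi-likelihood test, Benjamini-Hochberg adjusted p = 6.61e-21). *TRAC* passed the count filter through its SEM::EGR3 counts, so this p-value adds no support.

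*TRBC1* (ENSG00000211751, chr7:142791694-142793368, plus strand) had 150, 218 and 167 reads in SEM::mock and 25, 12 and 17 in SEM::EGR3. Although the SEM::EGR3 libraries were deeper, each held fewer *TRBC1* reads than any SEM::mock library. The mean level fell from 31.8 ± 5.03 to 1.70 ± 0.152 CPM (SD, n = 3 per line) and was 18.8-fold lower (log2 fold change −4.23, SE 0.17; edgeR's quasi-likelihood test, Benjamini-Hochberg adjusted p = 8.01e-17). Its neighbour *TRBC2* (ENSG00000211772, chr7:142801041-142802748, plus strand) had 1, 0 and 0 reads in SEM::mock and 6, 2 and 1 in SEM::EGR3, too few for a test. Summing the counted reads of both genes before the fit left the difference at −4.01 on the log2 scale. Reads lost in counting are not in that sum, and their part was not tested.

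The gamma constant regions were scarce in both lines. *TRGC1* (ENSG00000211689, chr7:38257879-38265678, minus strand) had 9, 3 and 4 reads in SEM::mock and 1, 0 and 1 in SEM::EGR3, where it was at the detection limit. The levels did not overlap, and the mean of SEM::EGR3 was at least 3.10-fold lower. *TRGC1* did not pass the count filter, and without the filter it was called lower (log2 fold change −3.64, SE 0.86; edgeR's quasi-likelihood test, adjusted p = 9.30e-05), a call that rests on those few reads. *TRGC2* (ENSG00000227191, chr7:38239580-38249572, minus strand) was at the detection limit in both lines, with 0, 1 and 0 counts against 0, 0 and 1.

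Reads from the variable and joining segments of the receptor were few. These segments form the 5′ part of a rearranged transcript and MACE-Seq reads the 3′ end, so their counts do not tell whether the constant region transcripts carried a variable part. Leaving out the pseudogene *TRGVB*, with 1 count in a single SEM::EGR3 library, the table lists 7 variable and 2 joining segments, of which 7 had any count and none passed the filter. Their summed counts were 4, 8 and 7 in SEM::mock and 15, 2 and 6 in SEM::EGR3. *TRBV30*, the variable segment downstream of *TRBC2*, held all of the SEM::mock counts and had 7, 0 and 3 in SEM::EGR3. The delta constant region *TRDC* had 5, 1 and 5 reads in SEM::mock and 0, 1 and 0 in SEM::EGR3, which is at least 2.19-fold lower and not tested. Segments not listed in the table were not analysed here.

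Of the CD3 chains, which hold the receptor at the cell surface, *CD3E* and *CD3D* passed the test, and both were lower in SEM::EGR3. *CD3E* (ENSG00000198851, chr11:118304545-118316175, plus strand) had 12, 15 and 16 reads in SEM::mock and 5, 1 and 6 in SEM::EGR3. The highest SEM::EGR3 library, at 0.660 CPM, stood below the lowest SEM::mock library, at 2.11 CPM. The mean fell from 2.58 ± 0.511 to 0.372 ± 0.267 CPM (SD, n = 3 per line), 6.94-fold lower (log2 fold change −2.73, SE 0.41; edgeR's quasi-likelihood test, Benjamini-Hochberg adjusted p = 2.57e-06). *CD3E* passed the count filter through its SEM::mock counts, so this p-value adds no support.

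*CD3D*, which lies beside *CD3E* on chromosome 11 and encodes the CD3 delta chain, was the more abundant of the pair. It had 319, 342 and 310 reads in SEM::mock and 86, 54 and 54 in SEM::EGR3, without overlap once depth was taken into account. Its level was 57.9 ± 2.33 against 6.24 ± 0.897 CPM, 9.28-fold lower in SEM::EGR3 (log2 fold change −3.25, SE 0.11; edgeR's quasi-likelihood test, Benjamini-Hochberg adjusted p = 1.03e-18). *CD3G*, the gamma chain gene of the same cluster, was counted 5 times in each SEM::mock library and 0, 1 and 3 in SEM::EGR3, which is at least 2.91-fold lower and not tested. The 3 linked CD3 genes therefore had lower values in SEM::EGR3, of which *CD3D* and *CD3E* passed the test.

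*CD247* (ENSG00000198821, chr1:167430640-167518610, minus strand), the gene of the signaling zeta chain, had 1, 0 and 1 reads in SEM::mock and 6, 0 and 0 in SEM::EGR3. *LAT* (ENSG00000213658, chr16:28984826-28990783, plus strand), the membrane scaffold on which receptor signals assemble, had 1, 0 and 1 reads in SEM::mock and 3, 3 and 1 in SEM::EGR3. The lines overlapped for both genes and neither was tested, so a difference was not detectable at this depth. *CD247* had no read in 3 of the 6 libraries.

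Both transcription factor genes were higher in SEM::EGR3. *GATA3* (ENSG00000107485, chr10:8045378-8075203, plus strand) had 3, 3 and 4 reads in SEM::mock and 69, 35 and 42 in SEM::EGR3. The 3 SEM::EGR3 libraries lay close together, between 4.43 and 4.70 CPM, and no SEM::mock library was above 0.781 CPM. The mean rose from 0.603 ± 0.155 to 4.58 ± 0.136 CPM (SD, n = 3 per line), 7.60-fold (log2 fold change 2.90, SE 0.33; edgeR's quasi-likelihood test, Benjamini-Hochberg adjusted p = 3.50e-08). *GATA3* passed the count filter through its SEM::EGR3 counts, so this p-value adds no support.

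*TCF7* (ENSG00000081059, chr5:134114711-134151865, plus strand) had 120, 101 and 109 reads in SEM::mock and 660, 331 and 396 in SEM::EGR3. Every SEM::EGR3 library, from 42.4 to 44.4 CPM, was above every SEM::mock library, from 16.8 to 21.3 CPM. The mean rose from 19.8 ± 2.52 to 43.5 ± 1.01 CPM (SD, n = 3 per line), 2.20-fold (log2 fold change 1.14, SE 0.09; edgeR's quasi-likelihood test, Benjamini-Hochberg adjusted p = 1.02e-10). The last 2931 bases of *TCF7* overlap *SKP1*, a ubiquitin ligase subunit gene on the opposite strand. Since the strand setting of the counting is not given in the sources used here, reads of *TCF7* and *SKP1* in that stretch cannot be told apart. *SKP1* was abundant in both lines and had the opposite direction, at 318 ± 15.7 CPM in SEM::mock and 281 ± 12.8 CPM in SEM::EGR3 (log2 fold change −0.18; edgeR's quasi-likelihood test, Benjamini-Hochberg adjusted p = 0.00629).

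All 5 tested members passed the test and changed by at least 1 on the log2 scale, as did 25.2% of the tested genes, 16.7% in the higher and 8.5% in the lower direction. *TRAC* and *GATA3* passed the filter through their SEM::EGR3 counts and *CD3E* through its SEM::mock counts. The adjusted p-values of *TRAC*, *GATA3* and *CD3E* therefore add no support, and the count of called members is no measure of how often T-lineage genes differed. Of all 10, 4 were at the detection limit in SEM::mock (*TRBC2*, *TRGC2*, *CD247* and *LAT*) and 3 in SEM::EGR3 (*TRGC1*, *TRGC2* and *LAT*).

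The wider T-lineage list, in which the 10 genes are included, held 71 genes in 5 groups by role. Of the 69 genes listed in the table, 36 were tested, and 20 of these were higher, 15 lower and 1 not called in SEM::EGR3, beside 36.5% of all tested genes higher and 32.0% lower. The tested genes had a median of 1.18 on the log2 scale of the fold change, against 0.03 over all tested genes. The lines did not overlap for 35 of the 36, beside 70.1% of all tested genes. Without the members, 17 were higher and 13 lower of 31 tested. Of the 36 tested genes, 9 were at the detection limit in SEM::mock and higher in SEM::EGR3, beside 5.13% of all tested genes. These 9 passed the filter through their SEM::EGR3 counts and so had to differ. The counts, the median and the non-overlap of the list are therefore no measure of how T-lineage genes differed. Another 33 listed genes were not tested, and 14 of the 69 had no read in SEM::mock.

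**Figure D2:**
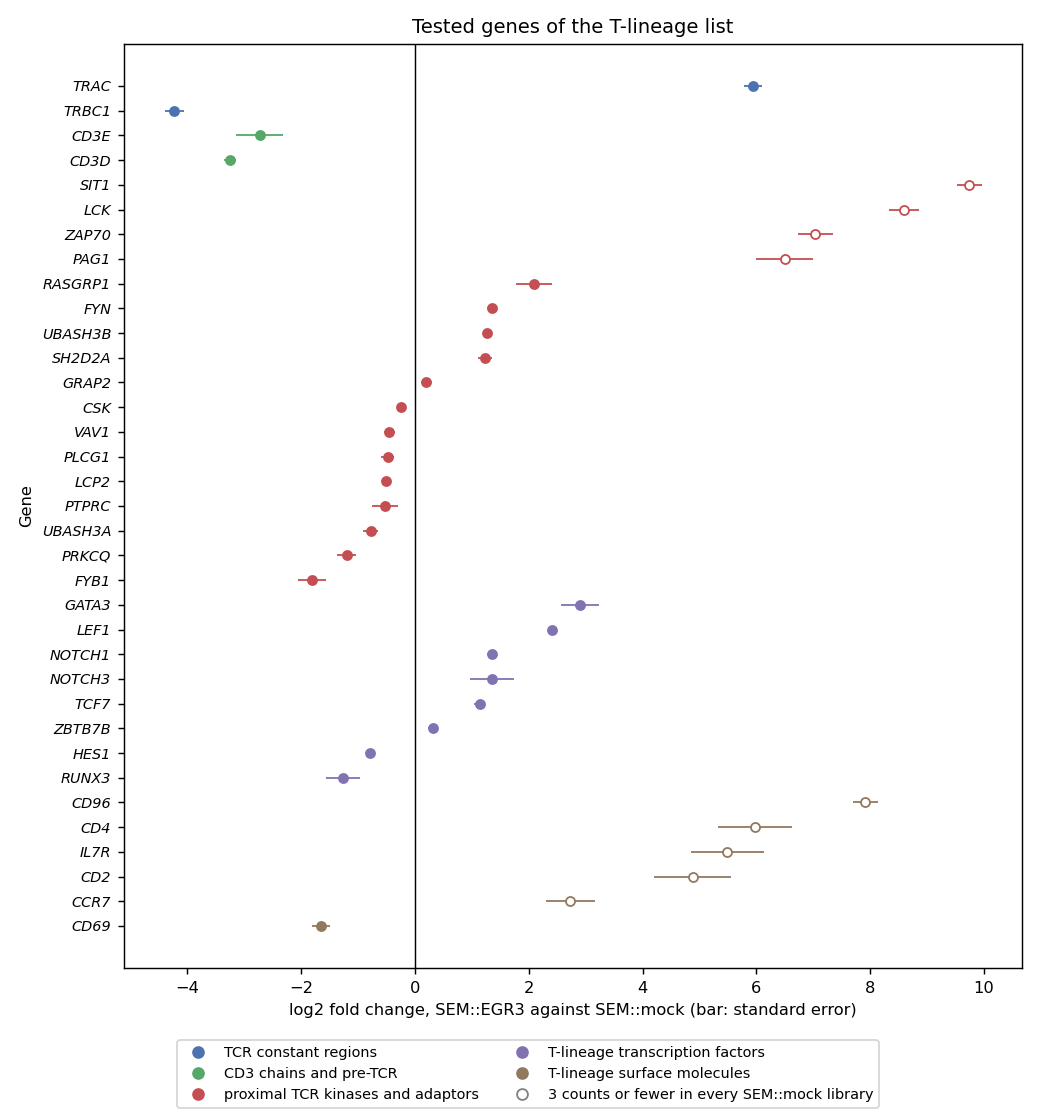
The log2 fold change of SEM::EGR3 against SEM::mock for 35 of the 36 tested genes of the T-lineage list, grouped by role and coloured by group, with the standard error as a bar. Open points are genes at 3 counts or fewer in every SEM::mock library, whose fitted value depends on the prior count. TRAC stands to the right of 0 and TRBC1, CD3E and CD3D to the left, while kinases and adaptors lie on both sides.

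Among the proximal kinases and adaptors, 18 of 25 genes were tested, 8 higher and 9 lower, beside 36.5% and 32.0% of all tested genes. Their median log2 fold change was −0.02, and 4 of the 8 higher genes were at the detection limit in SEM::mock. Several kinases and membrane adaptors of receptor signaling, which B cells and other blood cells also use, were at the detection limit in SEM::mock and well represented in SEM::EGR3. *LCK*, the kinase that phosphorylates the CD3 chains, had 0, 0 and 2 reads in SEM::mock and 785, 402 and 469 in SEM::EGR3, which is at least 96.6-fold higher. *ZAP70*, the kinase that binds the phosphorylated chains, had 2, 0 and 1 counts against 391, 211 and 212, at least 47.5-fold higher. *SIT1*, a transmembrane adaptor of lymphocytes, had 1, 1 and 0 counts against 1679, 948 and 1020, at least 215-fold higher.

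These genes had few or no reads in any SEM::mock library and were found in every SEM::EGR3 library. *SIT1*, *LCK* and *ZAP70* passed edgeR's quasi-likelihood test at Benjamini-Hochberg adjusted p-values of 5.48e-22, 2.48e-19 and 2.85e-16. They passed the count filter through their SEM::EGR3 counts and so had to differ, and these p-values add no support. The adaptor *PAG1*, which recruits the inhibitory kinase CSK, was at least 12.7-fold higher. *RASGRP1*, an activator of RAS, was 4.38-fold higher, with 7, 8 and 3 counts against 67, 29 and 51 (log2 fold change 2.08, SE 0.32). The kinase *FYN* (1.35 ± 0.09), the phosphatase *UBASH3B* (1.26 ± 0.07) and the adaptor *SH2D2A* (1.23 ± 0.12) had smaller positive log2 fold changes, given with the standard error.

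Other genes of the group were lower. *PRKCQ*, the protein kinase C that acts downstream of the receptor, was 2.28-fold lower (12.5 ± 2.00 against 5.48 ± 0.586 CPM). *FYB1*, an adaptor that links the receptor to integrin adhesion, was 3.69-fold lower (5.48 ± 0.634 against 1.49 ± 0.270 CPM). For both genes the lines did not overlap, and the differences passed edgeR's quasi-likelihood test at Benjamini-Hochberg adjusted p-values of 6.51e-07 and 5.28e-07. *FYB1* passed the count filter through its SEM::mock counts, so its p-value adds no support. *GRAP2*, an adaptor that joins LAT to LCP2, was the one tested gene of the list without a call (23.2 ± 2.31 against 26.8 ± 1.24 CPM; edgeR's quasi-likelihood test, Benjamini-Hochberg adjusted p = 0.0784).

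Of the 15 transcription factor genes, 8 were tested, 6 higher and 2 lower, beside 36.5% and 32.0% of all tested genes. Their median log2 fold change was 1.24. *GATA3* and *NOTCH3* passed the count filter through their SEM::EGR3 counts. *LEF1*, the partner of *TCF7* in WNT signaling and in early T and B cell development, had 264, 312 and 269 reads in SEM::mock and 4311, 1831 and 2534 in SEM::EGR3. Its level rose 5.31-fold, from 50.3 ± 3.38 to 267 ± 18.7 CPM (log2 fold change 2.41, SE 0.07; edgeR's quasi-likelihood test, Benjamini-Hochberg adjusted p = 9.41e-20). *NOTCH1*, the receptor that starts the T cell programme, was 2.56-fold higher (22.4 ± 1.66 against 57.3 ± 2.85 CPM; edgeR's quasi-likelihood test, Benjamini-Hochberg adjusted p = 4.91e-13), and *NOTCH3* was 2.64-fold higher at a low level (0.714 ± 0.164 against 1.89 ± 0.189 CPM). *HES1*, a gene that NOTCH signaling is known to activate, was lower, at 70.3 ± 4.69 CPM in SEM::mock and 40.5 ± 4.80 CPM in SEM::EGR3 (log2 fold change −0.79, SE 0.08). *HES1* had a smaller change than the naming rule asks and was added after its values were seen. *DTX1*, of the same group and also added afterwards, had the opposite direction, with 1, 1 and 0 counts in SEM::mock and 15, 5 and 3 in SEM::EGR3. *DTX1* did not pass the count filter, and NOTCH activity was not tested. *RUNX3*, a factor of cytotoxic T cells, was 2.38-fold lower (3.55 ± 1.47 against 1.49 ± 0.151 CPM). *BCL11B*, which T cell commitment requires, had no read in SEM::mock and 1, 2 and 0 in SEM::EGR3.

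Of the surface molecules, 18 of 20 were listed, and 17 of them were at the detection limit in SEM::mock. Of the 6 tested, 5 were higher, beside 36.5% of all tested genes. These 5 passed the count filter through their SEM::EGR3 counts and so had to differ, and their adjusted p-values add no support. *CD96*, an adhesion receptor of T and NK cells, had 2, 0 and 2 reads in SEM::mock and 904, 482 and 565 in SEM::EGR3, which is at least 115-fold higher. *CD4* had 0, 1 and 0 counts against 96, 24 and 34, at least 8.13-fold higher, and the first SEM::EGR3 library stood above the other 2 also in CPM. *IL7R*, the interleukin 7 receptor of T and B precursors, *CCR7*, a homing receptor, and *CD2*, an adhesion molecule, were at least 5.93-fold, 4.56-fold and 4.21-fold higher. Among these 5, the Benjamini-Hochberg adjusted p of edgeR's quasi-likelihood test ran from 6.59e-20 for *CD96* to 5.62e-06 for *CCR7*.

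The surface molecules that define T cells were mostly near 0. *CD5* had no read in SEM::mock and 6, 1 and 3 in SEM::EGR3, *CD7* none against 3, 1 and 4, and *CD8A* none in any library. *CD69*, an early activation antigen of many leukocytes, was the one surface molecule that was lower, at 15.5 ± 2.19 against 5.01 ± 0.660 CPM (3.09-fold lower; edgeR's quasi-likelihood test, Benjamini-Hochberg adjusted p = 1.86e-09). The list of 9 T cell markers summed to 60.4 to 66.2 CPM in SEM::mock and 80.2 to 88.8 CPM in SEM::EGR3. In SEM::mock that sum was mostly *CD3D*, and in SEM::EGR3 mostly *TRAC*: 4 of the 9 were tested, with *TRAC* and *CD2* higher and *CD3D* and *CD3E* lower. The list holds *TRAC* and *TRBC2* but not *TRBC1*, and the difference between the sums rests on that choice. With *TRBC1* added after the values were seen, the lines overlapped, at 86.8 to 98.8 CPM in SEM::mock and 81.8 to 90.4 CPM in SEM::EGR3.

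Genes related to the members by sequence did not share one direction. *LAT2*, the adaptor that resembles *LAT* and is used in B cells and mast cells, had 1, 1 and 3 reads in SEM::mock and 1639, 904 and 1006 in SEM::EGR3, which is at least 209-fold higher, while *LAT* itself was at the detection limit in both. *GATA1* and *GATA2*, the erythroid and progenitor relatives of *GATA3*, were slightly lower, with log2 fold changes of −0.23 (SE 0.05) and −0.40 (SE 0.06). Per 3′ end counted, *GATA1* had a higher level than *GATA3* in both lines, at 335 ± 9.65 CPM in SEM::mock and 285 ± 8.68 CPM in SEM::EGR3. *TCF7L2*, related to *TCF7*, was not called (18.1 ± 3.69 against 18.5 ± 1.57 CPM). Of the 9 related genes, 6 were tested, with *LAT2* and *LEF1* higher and *GATA1*, *GATA2* and *CD3D* lower. *FCER1G*, which resembles *CD247*, had 0, 3 and 1 counts against 6, 3 and 1, and *TCF7L1* had 1, 3 and 2 against none.

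The genes around the receptor loci were examined because *TRAC* and *TRBC1* differed so widely. Within 500000 bases of the constant regions, 26 of 66 listed genes were tested, and 17 were higher and 6 lower. The called share, 88.5%, is to be read against the 68.5% of all tested genes, and neighbours are not independent of each other. Some of them, among these *MMP14*, *SLC7A7*, *AL160314.2*, *EPDR1* and *TRG-AS1*, passed the count filter through their SEM::EGR3 counts. The counts of called neighbours and their medians are therefore no measure of how genes around the loci differed.

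**Figure D3:**
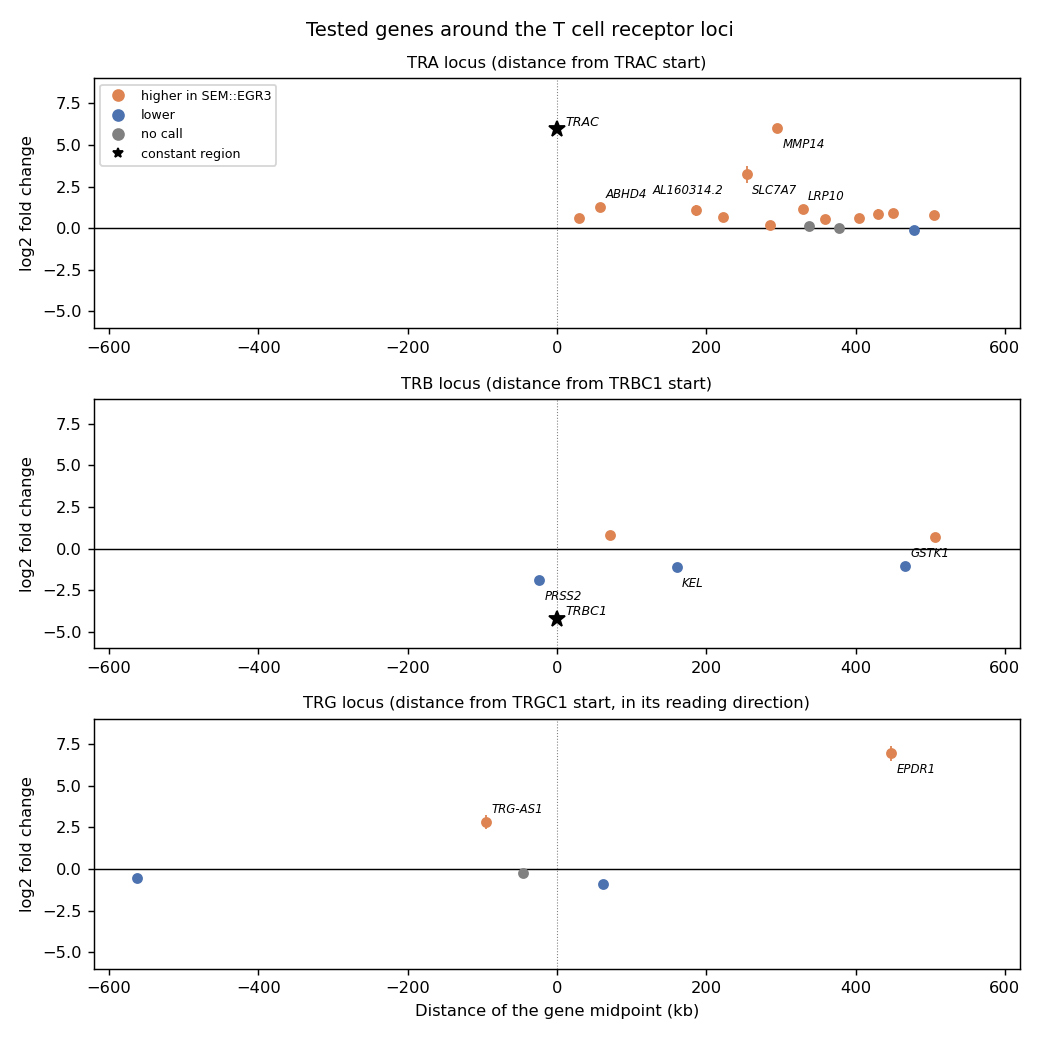
The log2 fold change, SEM::EGR3 against SEM::mock, of tested genes by the distance of the gene midpoint from the start of the constant region, in kb, at the alpha, beta and gamma loci. Stars are the constant regions TRAC and TRBC1, orange points are higher, blue points lower and grey points not called, and bars are standard errors. Genes that changed by at least 1 on the log2 scale are named. Next to TRAC, 13 of 16 tested neighbours were higher, beside 36.5% of all tested genes, and some of the 13 passed the count filter through their SEM::EGR3 counts.

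Beside *TRAC*, 13 of 16 tested neighbours were higher and 1 was lower, with a median log2 fold change of 0.72, beside 36.5% of all tested genes higher and 32.0% lower. *MMP14*, a membrane metalloprotease, had 8, 8 and 4 reads in SEM::mock and 1196, 589 and 698 in SEM::EGR3 (log2 fold change 6.01, SE 0.15; edgeR's quasi-likelihood test, Benjamini-Hochberg adjusted p = 2.76e-21), a difference close to that of *TRAC* in size. Like *TRAC*, *MMP14* passed the count filter through its SEM::EGR3 counts, so this p-value adds no support. *SLC7A7*, an amino acid transporter, had 1, 4 and 0 counts against 51, 21 and 22 (10.1-fold higher). The changes of *ABHD4*, *LRP10* and the noncoding *AL160314.2* were between 1.06 and 1.26 on the log2 scale. *DAD1*, an oligosaccharyltransferase subunit gene and the nearest tested neighbour of *TRAC*, rose by 0.60 on the same scale (145 ± 12.6 against 218 ± 7.53 CPM). *DAD1* is named here for its position, chosen after its values were seen.

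At the beta locus, *PRSS2*, a trypsinogen gene between the beta variable segments and *TRBC1*, was lower as well. It had 334, 350 and 329 reads in SEM::mock and 234, 141 and 147 in SEM::EGR3, or 60.5 ± 3.28 against 16.7 ± 2.00 CPM (3.62-fold lower; edgeR's quasi-likelihood test, Benjamini-Hochberg adjusted p = 2.42e-15). Trypsinogen genes are a family of close copies at this locus, so the assignment of reads to *PRSS2* is uncertain. *KEL*, the Kell blood group gene, and *GSTK1*, a glutathione transferase gene, were 2.18-fold and 2.08-fold lower. The remaining tested neighbours, *EPHB6* and *CASP2*, were higher by 0.79 and 0.71 on the log2 scale, so the beta locus held genes of both directions.

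At the gamma locus, 2 of 5 tested neighbours were higher, 2 lower and 1 not called, beside 36.5% of all tested genes higher and 32.0% lower. *EPDR1* had 0, 0 and 1 reads in SEM::mock and 147, 71 and 79 in SEM::EGR3, which is at least 17.1-fold higher. *TRG-AS1*, a transcript antisense to gamma variable segments, had 4, 2 and 1 counts against 46, 21 and 32 (7.54-fold higher; log2 fold change 2.84, SE 0.41), while *TRGC1* had the opposite direction.

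The genes whose pattern over the 6 libraries was closest to that of *TRBC1*, by the root mean square difference of centred log2 CPM, were *MS4A3*, *DHRS3* and *FCGR2A*, at 0.289, 0.351 and 0.393. *MS4A3*, a gene of granulocyte precursors, went from 62.0 to 5.41 CPM in the mean of each line. For *GATA3* they were *NEDD9*, *MCOLN3* and the pseudogene *GSTA7P*, at 0.0671, 0.0679 and 0.0719. The measure uses log2 of CPM plus 0.5, the 6 libraries are split by line in each case, and the lists describe likeness and nothing more.

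EGR proteins bind GC-rich sites, and 2 forms of the motif, GCGTGGGCG and GCGGGGGCG, were searched on both strands of the 300-base start windows. The second shares the letters GGGGCG with the GC box of SP factors. Of 35116 windows, 0.795% held the first form, 5.07% the second and 5.77% either. Start windows were found for 4 members (*CD247*, *TCF7*, *GATA3* and *LAT*), with 11 windows, of which the *GATA3* window shown above held a match. Of the T-lineage list, 45 genes had 68 windows, and 5 of these (7.35%) held a match, those of *ZAP70*, *FYN*, *NOTCH1*, *GATA3* and *NOTCH3*. A match describes the letters of the window, and binding was not analysed here.

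Markers of other blood cell types moved between the lines in several directions beside the T-lineage genes. B lineage markers summed to 2.64 to 5.86 CPM in SEM::mock and 515 to 543 CPM in SEM::EGR3, and 9 of 12 were at the detection limit in SEM::mock, with *BLK*, *EBF1*, *MS4A1* and *DNTT* at 0. All 9 tested B lineage markers were higher. Of these, 6 were at the detection limit in SEM::mock and so passed the count filter through their SEM::EGR3 counts. Of all tested genes, 36.5% were higher and 32.0% lower. Myeloid markers fell from between 279 and 288 to between 106 and 109 CPM in sum, with *LYZ* and *CD33* lower and *PRTN3* and *ITGAM* higher among the 4 tested. NK cell markers, of which 9 of 10 were listed, had sums of 39.1 to 43.5 and 42.4 to 46.5 CPM, with *PRF1* higher, *NCAM1* and *NCR1* lower and *KLRF1* not called. Of the erythroid markers, 2 were higher and 5 lower of 7 tested. The epithelial and fibroblast markers had sums of 747 to 779 CPM in SEM::mock and 452 to 475 CPM in SEM::EGR3, with 2 higher and 3 lower of 5 tested. The part of these differences in the values of the T-lineage genes was not tested.

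**Figure D4:**
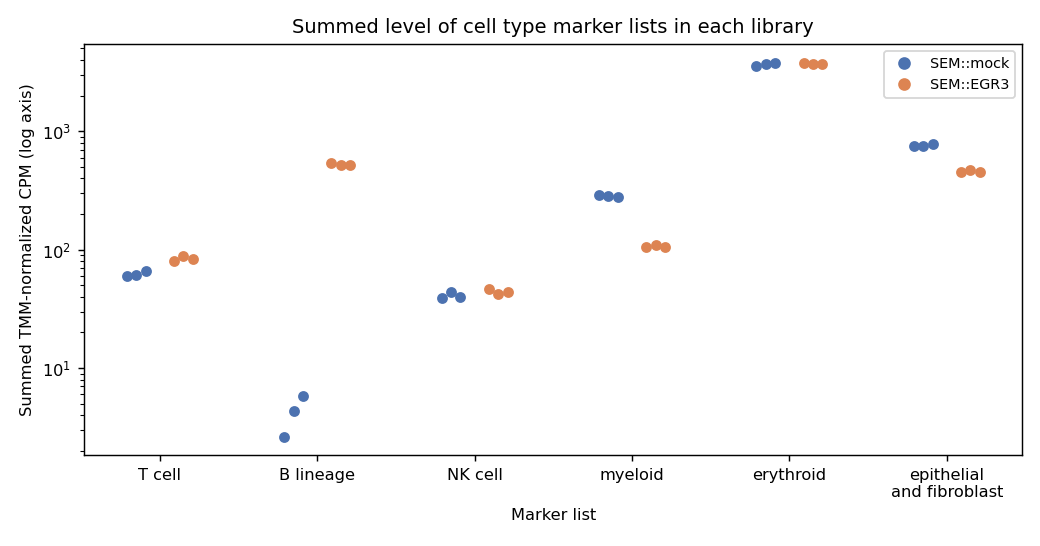
The summed TMM-normalized CPM of each cell type marker list in each library, on a log axis, with SEM::mock in blue and SEM::EGR3 in orange. The B lineage sums lie between 2.64 and 5.86 CPM in SEM::mock and between 515 and 543 CPM in SEM::EGR3, and the T cell sums, which hold TRAC but not TRBC1, between 60.4 and 66.2 and between 80.2 and 88.8 CPM.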

How the data were processed

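RNA of 3 SEM::mock and 3 SEM::EGR3 libraries, grouped by the sample labels, was sequenced by MACE-Seq by the authors. Columns headed ERG3 were taken as SEM::EGR3, since the labels name no other overexpressing line. The submitters' processing notes name bcl2fastq, Bowtie2, HTSeq and GRCh38. The annotation release and strand setting are not given in the sources used here. The counts deposited by the authors are whole numbers, without normalization, and were used unchanged. The deposited CPM values (headed TPM) and the deposited size-factor normalized signal values were not used in tests. The authors' deposited mean count of each line, treated as a score because it need not be whole, was not used either. The deposited log2 fold changes and p-values of the authors' own comparison were not used.

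Counts of the 35410 listed genes were fitted with edgeR 4.0.16 under R 4.3.3 (filterByExpr with a minimum count of 10, TMM, glmQLFit, glmQLFTest) over all 6 libraries. Benjamini-Hochberg adjustment covered all 15465 tested genes. The standard error is the absolute log2 fold change divided by the square root of F. The procedure was tested on simulated counts in which far fewer genes changed than here, so that test does not cover data like these. Replicates differed by more than counting noise (chi-square per degree of freedom of 1.71 to 3.32). That cannot tell biological replicates from technical repeats, and the libraries were taken as the labels name them. Intervals and limits of detection cover no more than counting error, and the lower bounds leave out the counting error of the other line's mean.

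The members and lists were chosen with earlier results of these data known. Named were all members, genes of the T-lineage list, their relatives and the locus neighbours with an adjusted p under 0.05, no overlap between the lines and a change of at least 1 on the log2 scale, the 3 genes nearest to *TRBC1* and to *GATA3*, and *EGR3*. A gene outside this rule is marked as such or given for its count, overlap or role in a list. Gene positions and exons came from GENCODE 29, which held 97.0% of the listed genes, and start windows from RefSeq. The values of some genes that the lists count are not reported here. DESeq2 1.42.0, other normalizations, other filters, a replicate block and leaving out each library were tried.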

Additional observations from a re-analysis of the deposited data

How the results depend on the processing

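The log2 fold changes of the 5 tested members kept their direction and their call under every alternative that could test them, between 5.75 and 6.14 for *TRAC*, −4.37 and −4.01 for *TRBC1*, −3.22 and −2.47 for *CD3E*, 2.77 and 3.10 for *GATA3* and 1.02 and 1.22 for *TCF7*. Requiring 10 counts in every library removes *TRAC*, *GATA3* and *CD3E* by construction. It left 1 member higher and 1 lower, 8 genes of the T-lineage list higher against 20, and 11 locus neighbours higher against 17. With a window of 200000 bases, 5 neighbours were higher and 3 lower, against 17 and 6. Where a change of at least 1 on the log2 scale was also required, 8 genes of the list were lower against 15. Without the filter, *TRGC1* joined the members called lower, which were then 3. DESeq2 called 9391 genes, against 10593. With no normalization factors the median of all genes moved to 0.11 on the log2 scale, and no member's direction changed. For *LCK*, *PAG1*, *CD2*, *CD4* and *IL7R*, fitted changes reached 11.82, 8.89, 7.25, 8.33 and 7.86 when the one SEM::mock library with a read was left out, which leaves no SEM::mock count. Other single SEM::mock libraries moved *ZAP70* (6.43 to 7.91), *LAT2* (up to 9.22) and *CD96* (down to 7.30).

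Same-numbered replicates did not deviate together (correlations of −0.14, −0.09 and −0.04), so the numbers do not pair the libraries. With a replicate block, 10082 genes were called, *TRAC* was at 5.95, *TRBC1* at −4.18, *CD3E* at −2.71, *GATA3* at 2.91 and *TCF7* at 1.14, and no member lost its call. Depth limits the genes with few reads: for *TRBC2*, *TRGC2*, *CD247* and *LAT* a difference was not detectable.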
